A study of Homo sapiens with 12 samples.

Results

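The lowest dose of an aconite root extract was compared with its vehicle in SW1783 cells, an established human astrocytoma line. The 3 low dose libraries came from cells given 20 µg/mL of the extract for 24 h. The 3 vehicle libraries came from cells given the solvent of the extract stock, PBS with 2% DMSO. The methods describe adding a small volume to the growth medium, so the medium itself held less than 2% DMSO. Both sets were chosen by their labels and make up 6 of the 12 libraries of the series. The other 6 received 100 µg/mL (medium dose, 3 libraries) or 500 µg/mL (high dose, 3 libraries) and served here to share the estimate of spread and to place the low dose levels. No genetic change and no second agent was named for any group, so all 4 shared the line, its L-15 medium and the 24 h of exposure. The plant is Aconitum carmichaeli Debeaux (ACD) in the titles and treatment labels, whereas the treatment protocol filed with the same samples speaks of Poria cocos, and the groups follow the former. Neither the labels nor the methods say that the 3 libraries of a group came from separate cultures, so every p-value measures the spread between libraries, which may be technical.

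Mitochondrial DNA is transcribed from both strands into long precursors that are cut at the tRNAs between the other genes. On the heavy-strand transcript the rRNAs come first, followed by the mRNAs of ND1 and ND2. ATF4 is a transcription factor whose translation rises when the initiation factor eIF2 is phosphorylated. Its targets make, import and charge amino acids, and others encode regulators such as CHOP (DDIT3) and TRIB3 or the enzyme CHAC1. The unfolded protein response of the endoplasmic reticulum (ER) acts through further factors, among them XBP1 and ATF6, and its targets are the chaperones of that compartment. In astrocytes and gliomas these programmes are known for their part in the response to nutrient and protein folding stress.

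The low dose changed few genes, most of them by little. Of 15246 genes whose normalised count averaged 10 or more over the 6 libraries, 263 differed from vehicle at a DESeq2 adjusted p under 0.05, which is 1.73% of the tested genes. Normalised counts are expected counts, rounded, divided by a size factor for each library. A gene past that adjusted p is called a changed gene here, 169 of them higher (1.11%) and 94 lower (0.617%) at the low dose. In 210 of the 263 (79.8%) the log2 change was under 0.32 in size, and the median log2 fold change was 0.20 for those that rose and -0.21 for those that fell. The median over all tested genes was 0.0024. A differentially expressed gene (DEG) was a changed gene with a fold over 1.5 in either direction, and 16 met that definition (0.105%), 11 higher (0.0722%) and 5 lower (0.0328%). The edgeR quasi-likelihood test gave 16 higher and 15 lower, and limma voom 16 higher and 14 lower. The 3 low dose libraries lay wholly above or below the 3 vehicle libraries in all 263 changed genes and in 3304 tested genes (21.7%), 1721 above (11.3%) and 1583 below (10.4%). A lack of overlap stated below for a changed gene is therefore no further support for its call. At an unadjusted p under 0.05 there were 1486 genes (9.75%). The count of changed genes rested on all libraries. It was 233 without low dose replicate 1, but 145 without low dose replicate 2, 135 without low dose replicate 3, and 141, 137 and 165 without vehicle replicates 1, 2 and 3, and 93 of the 263 were called in all 6 of these fits. Of the 16 DEGs, 10 met the definition in all 6.

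**Figure D1:**
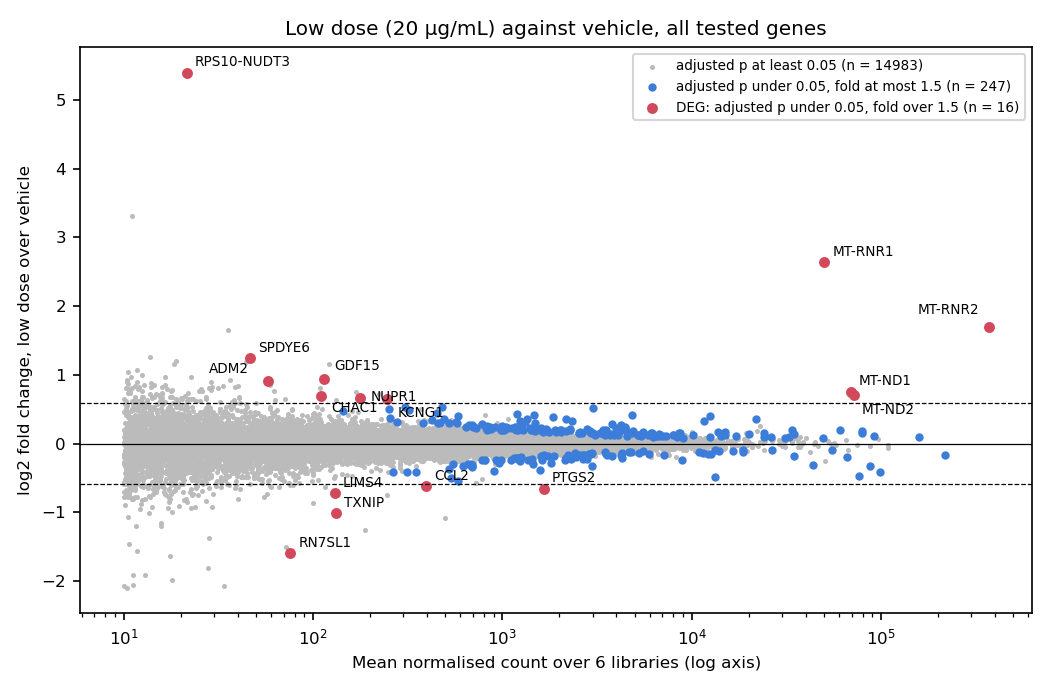
Each point is 1 of the 15246 tested genes, with the mean normalised count over the 6 low dose and vehicle libraries on a log axis and the log2 fold change of low dose over vehicle on the other. Most of the 263 genes past the adjusted p (blue and red) lie inside the dashed lines that mark a fold of 1.5, and the 16 DEGs (red, named) lie outside them, 4 of them with a mean count under 100.

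Total counts lay between 19514623 and 23025848 in the vehicle libraries and between 19758843 and 21765360 in the low dose libraries, and this depth set what could be called. Among 2042 genes at mean normalised counts of 10 to 30 the median standard error of the log2 fold change was 0.454, and 1 gene was called. Between 30 and 100 the median standard error was 0.253 with 3 of 1943 genes called, and between 100 and 300 it was 0.137 with 11 of 2371 called. It fell to 0.0797 between 300 and 1000 (47 of 4262 called) and to 0.0507 between 1000 and 3000 (89 of 3310 called). Among the 1318 genes at 3000 or more it was 0.0345, and 112 (8.50%) were called, 79 higher and 33 lower. Their log2 changes were as small as 0.0822. A log2 change of 0.32 was therefore not detectable in most genes with a mean below 100. Between 100 and 300 the smallest log2 change called was 0.319 in size, so changes of that size were at the limit there too. Below the minimum of 10, 15557 genes had a count in some library of the series. Of these, 59 were at 0 in every vehicle library and counted in every low dose library, with at most 25 counts over the 3 libraries, and 95 showed the reverse, with at most 16. None of them entered the adjustment. The shares over all tested genes that stand beside gene lists below (1.11% higher, 0.617% lower) average over all these classes of count. For lists of highly counted genes they are too low to be a like comparison, and no list was set against genes of matched count.

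**Figure D2:**
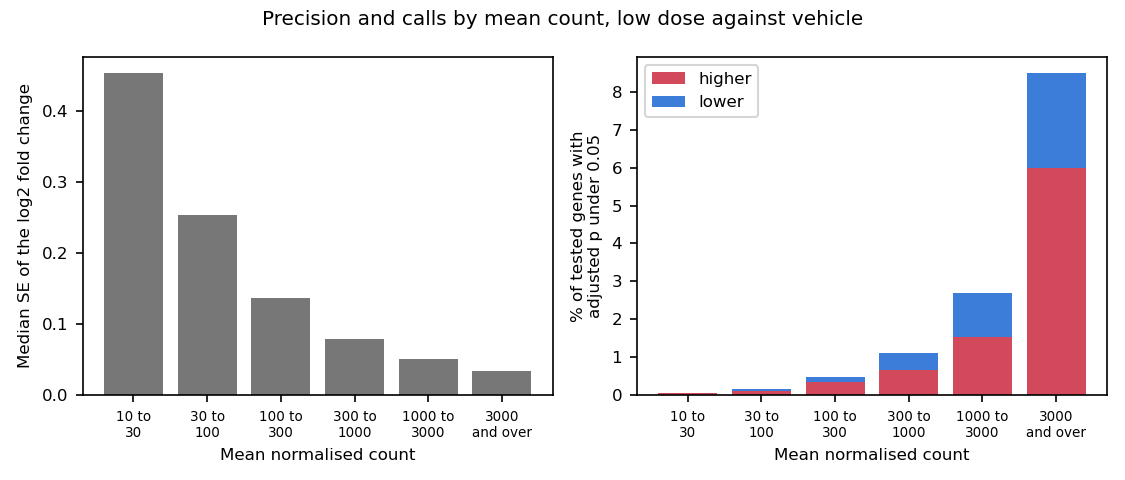
The left bars give the median standard error of the log2 fold change, and the right bars the percentage of tested genes past an adjusted p of 0.05 (red higher, blue lower at the low dose), in classes of mean normalised count. The standard error falls from 0.454 to 0.0345 while the share of called genes rises to 8.50%.

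The mitochondrial rRNAs had the lowest p-values at the low dose. MT-RNR1 (ENSG00000211459, chrM:648-1601, plus strand), the small ribosomal subunit's rRNA, had 13706, 13488 and 14351 normalised counts in the vehicle libraries and 93082, 83664 and 81711 in the low dose libraries. The groups did not overlap, and MT-RNR1 rose with a log2 fold change of 2.64, SE 0.052 and a DESeq2 adjusted p below what the software can represent. MT-RNR2 (ENSG00000210082, chrM:1671-3229, plus strand), the rRNA of the large subunit, had 173229, 170590.1 and 180638 with vehicle and 603399, 539868 and 558493 at the low dose, again without overlap (log2 1.70, SE 0.046, DESeq2 adjusted p 1.30e-289). These were the only genes that passed a DESeq2 test against the fold of 1.5 itself. Together they took 0.922, 0.913 and 0.960% of all counts in the vehicle libraries and 3.33, 3.01 and 3.10% in the low dose libraries, a difference of 2.21 percentage points. An exact two-sided permutation test of that share gave p = 0.1, the smallest that 3 against 3 libraries allow. The rRNAs rose unequally. For every 100 counts of MT-RNR2 there were 7.91, 7.91 and 7.94 of MT-RNR1 with vehicle and 15.4, 15.5 and 14.6 at the low dose, so the ratio was 1.92 times as high (exact permutation p = 0.1). The rRNA share was 7.67 to 8.05% at the medium dose and 5.76 to 6.06% at the high dose, above the low dose in each library. The methods call these mRNA libraries but do not state how mRNA was selected from total RNA, and the part of that step in this result was not tested.

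The mitochondrial mRNAs did not move together. MT-ND1 and MT-ND2, complex I subunits that follow the rRNAs, rose, while 7 of the other 11 mRNAs fell and 4 did not pass the test. Over all tested genes 1.11% were higher and 0.617% lower. MT-ND1 (ENSG00000198888, chrM:3307-4262, plus strand) had 50326, 47013 and 57074 normalised counts with vehicle and 106804, 72133 and 81653 at the low dose (log2 0.76, SE 0.137, DESeq2 adjusted p 1.07e-05). MT-ND2 (ENSG00000198763, chrM:4470-5511, plus strand) had 54766, 51588 and 57242 and 110040.1, 71678 and 84675 (log2 0.70, SE 0.139, DESeq2 adjusted p 9.83e-05). Low dose replicate 1 was the highest in both, although the other low dose libraries also lay above all vehicle libraries. Without low dose replicate 1 the log2 fold changes were 0.58 and 0.52 (DESeq2 adjusted p 1.45e-08 and 3.01e-07), which puts both genes under the 1.5-fold limit. The share of all counts on these genes together was 0.518, 0.489 and 0.563% with vehicle and 1.04, 0.694 and 0.804% at the low dose.

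The falls were in MT-ND4L (log2 fold change -0.49, SE 0.068), MT-CO3 (-0.47, SE 0.050), MT-ND4 (-0.41, SE 0.091), MT-CO2 (-0.33, SE 0.053) and MT-ND5 (-0.32, SE 0.055), with DESeq2 adjusted p from 1.98e-17 for MT-CO3 to 0.00105 for MT-ND4. They encode further subunits of complex I and cytochrome c oxidase. MT-CYB (-0.20, SE 0.056, DESeq2 adjusted p 0.0257) and MT-CO1 (-0.16, SE 0.048, 0.0378) also fell, but the MT-CYB call was lost in 3 of the 6 fits that left out 1 library (DESeq2 adjusted p up to 0.233) and the MT-CO1 call in 4 (up to 0.318). In a fit of the 6 low dose and vehicle libraries alone the calls of MT-CYB, MT-CO1 and MT-ND4 were lost (DESeq2 adjusted p 0.239, 0.150 and 0.0512). The values of MT-ATP6 (-0.26), MT-ATP8 (-0.15), MT-ND3 (0.16) and MT-ND6 (0.05), the last read from the other strand, came with DESeq2 adjusted p of 0.329, 0.920, 0.790 and 0.880, and the libraries of the groups overlapped in each. All mRNAs other than MT-ND1 and MT-ND2 took 3.66, 3.62 and 3.76% of counts with vehicle and 3.19, 2.74 and 2.99% at the low dose. The mitochondrial tRNAs held at most 4 counts in any of these libraries. MT-ND1 and MT-ND2 were higher at the low dose than at the medium dose (log2 0.60, DESeq2 adjusted p 1.93e-04 and log2 0.69, DESeq2 adjusted p 1.43e-05) and the high dose (log2 0.69, DESeq2 adjusted p 1.75e-06 and log2 0.63, DESeq2 adjusted p 2.10e-05).

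Nuclear DNA holds copies of mitochondrial genes whose reads are hard to tell from the originals. MTND2P28, a copy of MT-ND2 on chromosome 1, rose beside it (log2 0.52, SE 0.131, DESeq2 adjusted p 0.00690), and its call was lost in 3 of the 6 fits that left out 1 library (DESeq2 adjusted p up to 0.108). MTCO1P12 (-0.15) and MTATP6P1 (-0.20) did not pass the test. These genes share reads with the mitochondrial genes, so their counts are uncertain. Among nuclear genes that serve mitochondria, none of 30 for mitochondrial transcription and RNA turnover and none of 72 respiratory chain subunits passed the DESeq2 test, with median log2 changes of -0.012 and -0.0048. At an unadjusted p under 0.05 there were 1 and 6, and neither edgeR nor limma called any. HSPA9, the main chaperone of the matrix, rose by 0.14, SE 0.026 on the log2 scale (DESeq2 adjusted p 1.84e-05), and LONP1, a matrix protease, by 0.18, SE 0.047 (0.0129). They were 2 of 14 in that list, beside 1.11% higher over all tested genes. The LONP1 call was lost in 4 of the 6 fits that left out 1 library (DESeq2 adjusted p up to 0.223).

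**Figure D3:**
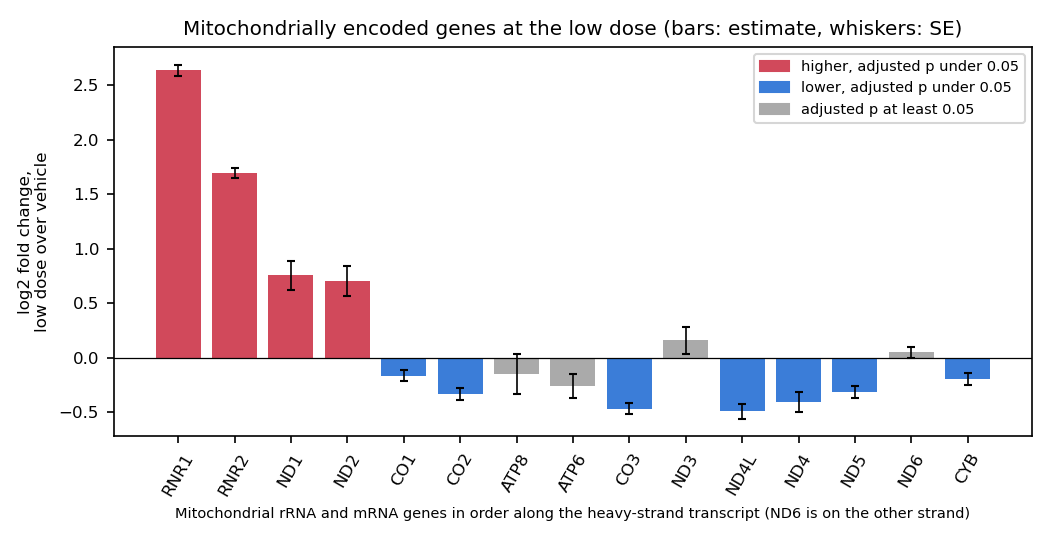
Bars give the log2 fold change of low dose over vehicle and whiskers its standard error for the mitochondrial rRNA and mRNA genes in their order on the heavy-strand transcript, with ND6 on the other strand. RNR1 (2.64), RNR2 (1.70), ND1 and ND2 at the start stand above 0 and most of the later genes below it.

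Of 22 tested genes of a list of ATF4 and its stress targets 10 were changed, all higher, against 1.11% higher over all tested genes, and the list's median log2 fold change was 0.24 against 0.0024. GDF15 (ENSG00000130513, chr19:18374731-18389176, plus strand), a secreted stress cytokine, had 63.5, 84.1 and 86.4 normalised counts with vehicle and 144, 149 and 159 at the low dose. No library overlapped (log2 0.94, SE 0.122, DESeq2 adjusted p 7.86e-12). ADM2 (ENSG00000128165, chr22:50481543-50486440, plus strand), a peptide hormone of the calcitonin family, had 30.7, 42.9 and 45.8 and 61.6, 84.7 and 79.5, with the lowest low dose library above the highest vehicle library (log2 0.91, SE 0.184, DESeq2 adjusted p 1.74e-04). CHAC1 (ENSG00000128965, chr15:40952962-40956512, plus strand), an enzyme that breaks down glutathione, had 88.1, 75.3 and 88.5 and 149, 113 and 143 (log2 0.69, SE 0.142, DESeq2 adjusted p 1.96e-04). Replicate 2 was the lowest of the low dose libraries for CHAC1 and still lay above every vehicle library. NUPR1 (ENSG00000176046, chr16:28532708-28539008, minus strand), a small stress-induced chromatin protein, had 128, 133 and 151 and 215, 215 and 218 (log2 0.66, SE 0.110, DESeq2 adjusted p 1.15e-06). The low dose libraries of NUPR1 were nearly equal. These 4 genes met the definition of a DEG in each fit that left out 1 library, but in a fit of the 6 low dose and vehicle libraries alone the ADM2 call was lost (log2 0.91, DESeq2 adjusted p 0.0652).

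ATF4 itself rose from 2059 ± 34.3 to 2594 ± 57.0 normalised counts (SD, n = 3; log2 0.33, SE 0.040, DESeq2 adjusted p 4.36e-14), and TRIB3, a pseudokinase that restrains ATF4, from 393 ± 46.3 to 568 ± 13.3 (log2 0.54, SE 0.065, DESeq2 adjusted p 1.38e-13). SESN2, an inhibitor of mTORC1 signalling, rose by 0.35, SE 0.076 on the log2 scale (DESeq2 adjusted p 9.42e-04). CEBPG, a dimer partner of ATF4 (log2 0.20, SE 0.049), DDIT3 (0.30, SE 0.072) and JDP2 (0.48, SE 0.140) were also higher, but their calls were lost in 3, 2 and 5 of the 6 fits that left out 1 library (DESeq2 adjusted p up to 0.0887, 0.121 and 0.349). DDIT3 shares 31.6% of its exon bases with MARS1 on the opposite strand, which was changed in the same direction, and since it is not stated whether counting used the strand, their reads may not be separate. ATF3 (log2 0.27, SE 0.204, DESeq2 adjusted p 0.781), PPP1R15A (0.16, SE 0.054, 0.131) and DDIT4 (0.16, SE 0.056, 0.147) did not pass the test. All 10 changed genes stood higher again at the medium and high doses. GDF15, for example, averaged 1037 ± 61.1 and 8795 ± 241 normalised counts there, and low dose and medium dose differed (log2 -2.79, DESeq2 adjusted p 2.23e-243).

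Genes that make, import and charge amino acids formed the next groups. Of 17 tested genes for serine, one-carbon, asparagine and proline synthesis 7 rose, against 1.11% of all tested genes higher, and none fell (median log2 0.12). ASNS, asparagine synthetase, had 1031, 1028 and 1004 normalised counts with vehicle and 1356, 1422 and 1329 at the low dose (log2 0.42, SE 0.045, DESeq2 adjusted p 2.20e-17). PSAT1, of the serine pathway, had 1257, 1292 and 1202 and 1679, 1684 and 1659.6 (log2 0.42, SE 0.046, DESeq2 adjusted p 7.95e-17). In both, all low dose libraries lay above all vehicle libraries by a wide margin. ALDH1L2 (log2 0.44, SE 0.076) and SHMT2 (0.21, SE 0.046), of the mitochondrial one-carbon cycle, kept their calls in every fit that left out 1 library, whereas PHGDH (0.26, SE 0.064), PYCR1 (0.22, SE 0.057) and GPT2 (0.25, SE 0.071) lost theirs in 3, 4 and 4 of 6. CTH, of the transsulfuration pathway, did not pass the test (-0.13, SE 0.128, DESeq2 adjusted p 0.882).

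Of 21 tested cytosolic aminoacyl-tRNA synthetases and tRNA carriers 10 rose, with 1.11% higher over all tested genes, and none fell (median log2 0.12). AARS1, the alanyl-tRNA synthetase, had 3759.6, 3910.0 and 3779 normalised counts with vehicle and 4501, 4627 and 4689 at the low dose, without overlap (log2 0.27, SE 0.029, DESeq2 adjusted p 2.54e-17). XPOT, the export receptor for tRNAs, rose by 0.23, SE 0.036 (DESeq2 adjusted p 1.54e-07) and GARS1, the glycyl-tRNA synthetase, by 0.23, SE 0.037 (5.86e-07). The others that rose were TARS1, YARS1, LARS1, IARS1, MARS1, NARS1 and WARS1, with log2 changes from 0.13 for WARS1 to 0.20 for TARS1. The calls of MARS1, NARS1 and WARS1 were lost in 2, 3 and 3 of the 6 fits that left out 1 library. Of 12 tested amino acid transporters 3 rose and 1 fell, beside 1.11% higher and 0.617% lower over all tested genes. SLC7A5, the light chain of the large neutral amino acid transporter, had 3500.4, 3336 and 3432 and 4355, 4221 and 3925 normalised counts (log2 0.28, SE 0.041, DESeq2 adjusted p 3.77e-09). SLC38A1 (0.16, SE 0.032) and SLC6A9 (0.24, SE 0.062), carriers of glutamine and glycine, rose as well, SLC6A9 with a call not kept in every fit that left out 1 library, whereas SLC38A2, a carrier of small neutral amino acids, fell from 9958, 9349 and 9486 to 8380.5, 8032 and 7986 (log2 -0.24, SE 0.035, DESeq2 adjusted p 3.42e-09). SLC7A11, the cystine carrier, did not pass the test (0.05, SE 0.035, DESeq2 adjusted p 0.781).

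Many ATF4 targets carry a C/EBP-ATF response element (CARE) with the letters TGATGNAAN. To show which of the genes that rose hold them, windows from 250 bases before to 50 after gene starts (RefSeq, GRCh38.p14) were searched. Both strands were read. The letters stood in 3.61% of 35116 windows and in 2.64% of 11088 tested genes with a window. The rest of the 15246 tested genes had no window and were not searched. Among the changed synthetase genes with a window 6 of 8 held them (AARS1, GARS1, IARS1, MARS1, NARS1 and TARS1), against 7 of 17 over all tested members. Of the changed ATF4 list genes 3 of 9 did (CEBPG, CHAC1 and JDP2), against 5 of 20. The amino acid transporters went the other way, with 1 of 4 changed genes (SLC38A1) against 5 of 10 tested members. Of the changed amino acid synthesis genes with a window 1 of 3 did (ASNS), against 2 of 10. That list held 7 changed and 17 tested genes, so most of its changed members were not searched. In the list of ER chaperones and degradation genes HERPUD1 alone did, 1 of 11 changed and 1 of 18 tested. A match is no measure of binding. The stretches below run 5′ to 3′ on the strand of the gene, 20 bases either side of the match, which is in capitals and reads in reverse complement (NTTNCATCA) where the element faces the other way.
CHAC1 CARE at chr15:40953241-40953289, plus strand: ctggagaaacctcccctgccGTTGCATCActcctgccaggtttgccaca
ASNS CARE at chr7:97872448-97872496, minus strand: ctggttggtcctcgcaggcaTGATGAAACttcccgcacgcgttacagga
AARS1 CARE at chr16:70289666-70289714, minus strand: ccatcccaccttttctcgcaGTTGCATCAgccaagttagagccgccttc
GARS1 CARE at chr7:30594824-30594872, plus strand: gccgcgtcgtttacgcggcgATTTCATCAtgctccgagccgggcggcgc
CEBPG CARE at chr19:33374051-33374099, plus strand: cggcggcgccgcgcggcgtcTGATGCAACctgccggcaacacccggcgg
HERPUD1 CARE at chr16:56931945-56931993, plus strand: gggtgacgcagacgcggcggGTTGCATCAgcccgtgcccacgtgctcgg

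Of 19 tested ER chaperones and genes of ER-associated degradation 12 rose (1.11% over all tested genes) and none fell, with a median log2 fold change of 0.12. Calls were more frequent at high counts (8.50% at 3000 or more), so 1.11% is not a like comparison for highly counted members. HERPUD1, which recruits the degradation machinery, had 1661, 1573 and 1605 normalised counts with vehicle and 2057, 2248 and 2028 at the low dose (log2 0.39, SE 0.042, DESeq2 adjusted p 1.83e-17). HSPA5 (BiP), the main chaperone of the compartment, had 74724, 73372 and 74842 and 83916, 85771 and 83953 (log2 0.19, SE 0.022, DESeq2 adjusted p 6.46e-14). Its groups were far apart although the change was 1.14-fold. HSP90B1 (log2 0.20, SE 0.023), PDIA4 (0.16, SE 0.023), CALR (0.14, SE 0.021), PDIA3 (0.13, SE 0.026) and HYOU1 (0.13, SE 0.027), all of them folding factors, kept their calls in every fit that left out 1 library. XBP1 (0.18, SE 0.046), MANF (0.17, SE 0.043), SEL1L (0.10, SE 0.027), PDIA6 (0.09, SE 0.024) and CANX (0.08, SE 0.021) lost theirs in 3 to 5 of 6. PDIA6 shares 25.2% of its exon bases with a gene on the opposite strand. The edgeR quasi-likelihood test called 9 of the 19. HSPA5 averaged 134215 ± 2215 normalised counts with the medium and 266399.8 ± 7890.0 with the high dose.

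The ER stress element (ERSE) is CCAAT and CCACG held apart by 9 bases of any kind, and in its compact form (ERSE-II) ATTGG, any base and CCACG. Searched in the same windows on both strands, ERSE stood in 0.0769% of all windows and 0.144% of tested genes, and in 6 of 11 changed genes of the ER list with a window (CALR, CANX, HSP90B1, HSPA5, PDIA6 and XBP1), against 7 of 18 over all tested members. ERSE-II stood in 0.0541% of all windows, and in HERPUD1 and HYOU1 among the changed genes. The stretches are printed in the same way, with the whole element and its spacer in capitals, which begin with CGTGG where the element faces the other way.
HSPA5 ERSE at chr9:125241371-125241429, minus strand: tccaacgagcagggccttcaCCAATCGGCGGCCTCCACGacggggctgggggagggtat
HSP90B1 ERSE at chr12:103930196-103930254, plus strand: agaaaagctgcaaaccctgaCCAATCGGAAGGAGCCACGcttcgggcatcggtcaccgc
CALR ERSE at chr19:12938364-12938422, plus strand: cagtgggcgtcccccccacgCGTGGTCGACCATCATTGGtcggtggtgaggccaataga
PDIA6 ERSE at chr2:10812833-10812891, minus strand: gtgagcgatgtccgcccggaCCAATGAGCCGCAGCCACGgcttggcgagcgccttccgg
XBP1 ERSE at chr22:28800583-28800641, minus strand: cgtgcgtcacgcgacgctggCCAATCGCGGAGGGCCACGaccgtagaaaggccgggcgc
HERPUD1 ERSE-II at chr16:56932005-56932055, plus strand: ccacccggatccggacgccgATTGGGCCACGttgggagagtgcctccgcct
HYOU1 ERSE-II at chr11:119057360-119057410, minus strand: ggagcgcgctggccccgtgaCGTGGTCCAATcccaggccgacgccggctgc

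Of 14 tested cytosolic chaperones 3 rose at the low dose (1.11% over all tested genes). HSP90AA1, the inducible cytosolic HSP90, had 22882, 23257 and 22478 normalised counts with vehicle and 24086, 25874 and 26667 at the low dose (log2 0.16, SE 0.030, DESeq2 adjusted p 3.80e-05), against 21678 ± 187 at the medium and 18356 ± 372 at the high dose. HSPA1A (log2 0.17, SE 0.050, DESeq2 adjusted p 0.0336) and HSPA1B (log2 0.20, SE 0.058, DESeq2 adjusted p 0.0421), near-identical copies that share reads, both lost their calls in 5 of the 6 fits that left out 1 library (DESeq2 adjusted p up to 0.418 and 0.402). HSP90AA1 was higher at the low dose than at the medium dose (log2 0.24, DESeq2 adjusted p 3.08e-13) and the high dose (log2 0.48, DESeq2 adjusted p 4.85e-54). Of 25 NRF2 targets and regulators 2 rose, also beside 1.11%. HMOX1, heme oxygenase, rose from 1177 ± 21.6 to 1455 ± 37.8 normalised counts (log2 0.31, SE 0.050, DESeq2 adjusted p 4.46e-07), and SQSTM1, an autophagy receptor, from 10322 ± 513 to 12984 ± 277 (log2 0.33, SE 0.031, DESeq2 adjusted p 1.14e-22). SQSTM1 shares 22.4% of its exon bases with MRNIP on the opposite strand. NQO1 (log2 0.00, SE 0.035), TXNRD1 (-0.08, SE 0.031) and GCLM (-0.05, SE 0.045), further genes of that list, did not pass the test. Of 25 autophagy and lysosome genes 4 rose, again beside 1.11%. Among them were SQSTM1, a member of both lists, and the lysosomal genes NPC1 (0.20, SE 0.034) and CTSD (0.11, SE 0.033). The CTSD call was not kept in every fit that left out 1 library.

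**Figure D4:**
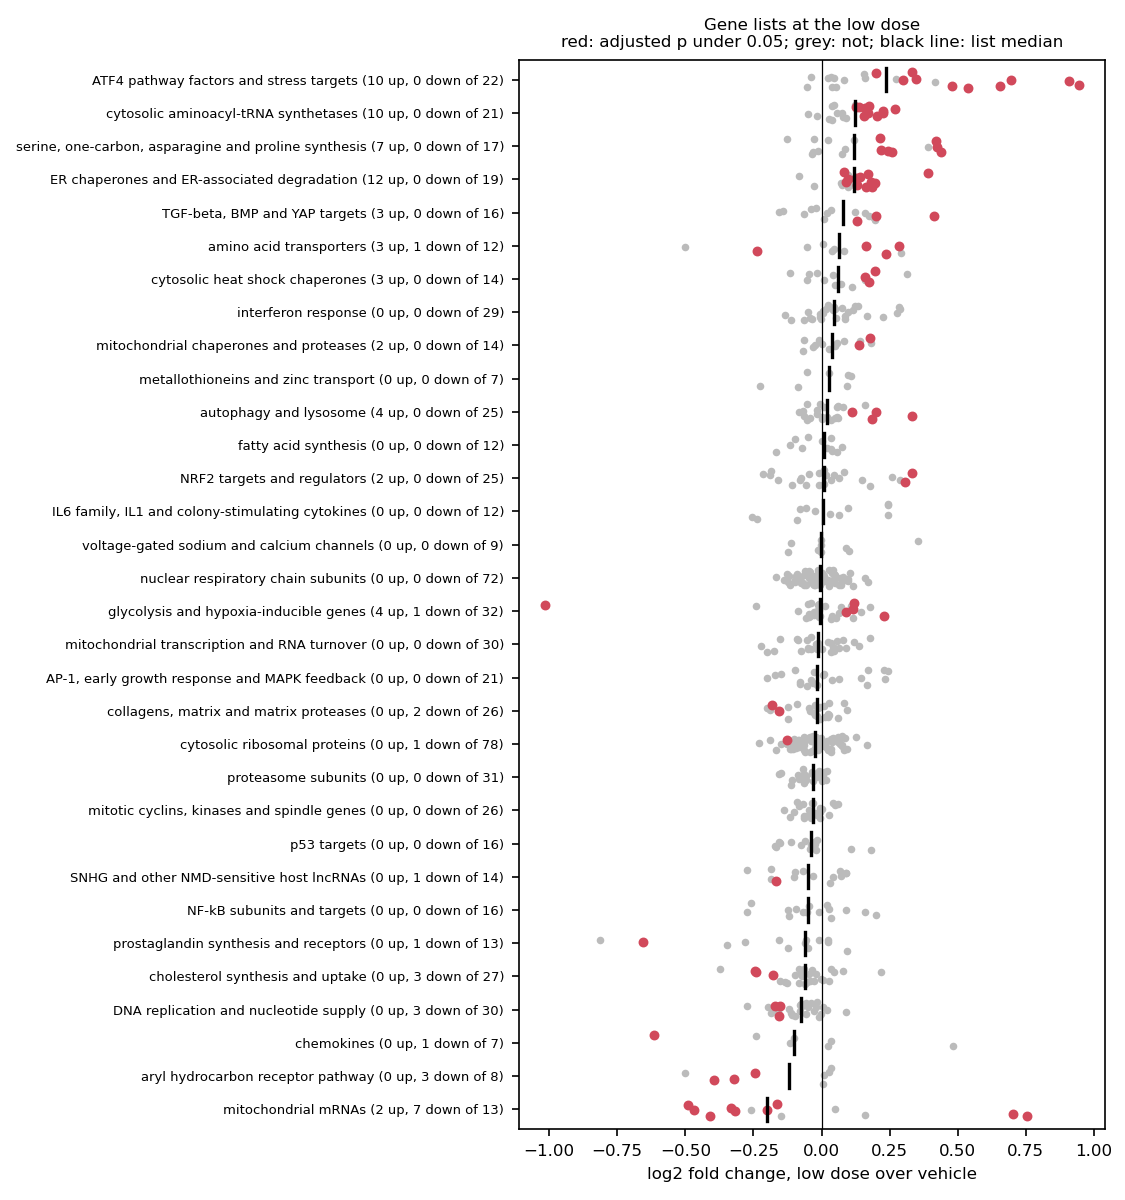
Each point is a tested member of a gene list at its log2 fold change of low dose over vehicle, red where the adjusted p was under 0.05, and the black line is the list's median. The ATF4, tRNA synthetase, amino acid synthesis and ER lists have medians from 0.12 to 0.24, while the mitochondrial mRNA list has members on both sides. The mitochondrial rRNAs, at 1.70 and 2.64, are not drawn.

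PTGS2, CCL2 and TXNIP were the DEGs that fell with a mean count over 100 and no near copy. PTGS2 (ENSG00000073756, chr1:186671791-186680922, minus strand), cyclooxygenase-2, had 1974, 1985 and 2109.6 normalised counts with vehicle and 1369.7, 1240.3 and 1243 at the low dose. The groups stood far apart (log2 -0.65, SE 0.058, DESeq2 adjusted p 3.26e-26). PTGS2 averaged 1521 ± 79.7 with the medium and 2521 ± 149 with the high dose, and the low dose level was below both (low over medium log2 -0.24, DESeq2 adjusted p 5.32e-04; low over high log2 -0.97, DESeq2 adjusted p 1.43e-63). TXNIP (ENSG00000265972, chr1:145992435-145996579, minus strand), an inhibitor of thioredoxin and of glucose uptake, had 189.6, 172 and 171 and 82.7, 96.9 and 83.7, also without overlap (log2 -1.01, SE 0.185, DESeq2 adjusted p 1.21e-05). It averaged 136 ± 24.4 at the high dose and had 62.6, 56.9 and 39.6 in the medium dose libraries. ARRDC4, its nearest relative, did not pass the test (log2 -0.24, SE 0.163, DESeq2 adjusted p 0.731). CCL2 (ENSG00000108691, chr17:34255274-34257208, plus strand), the monocyte chemokine, had 486, 438 and 511 and 365, 308 and 263, every low dose library below every vehicle library (log2 -0.61, SE 0.117, DESeq2 adjusted p 4.37e-05). Without low dose replicate 3 the CCL2 change was -0.51 (DESeq2 adjusted p 0.00802) and without vehicle replicate 3 it was -0.56 (0.00499), under the 1.5-fold limit.

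**Figure D5:**
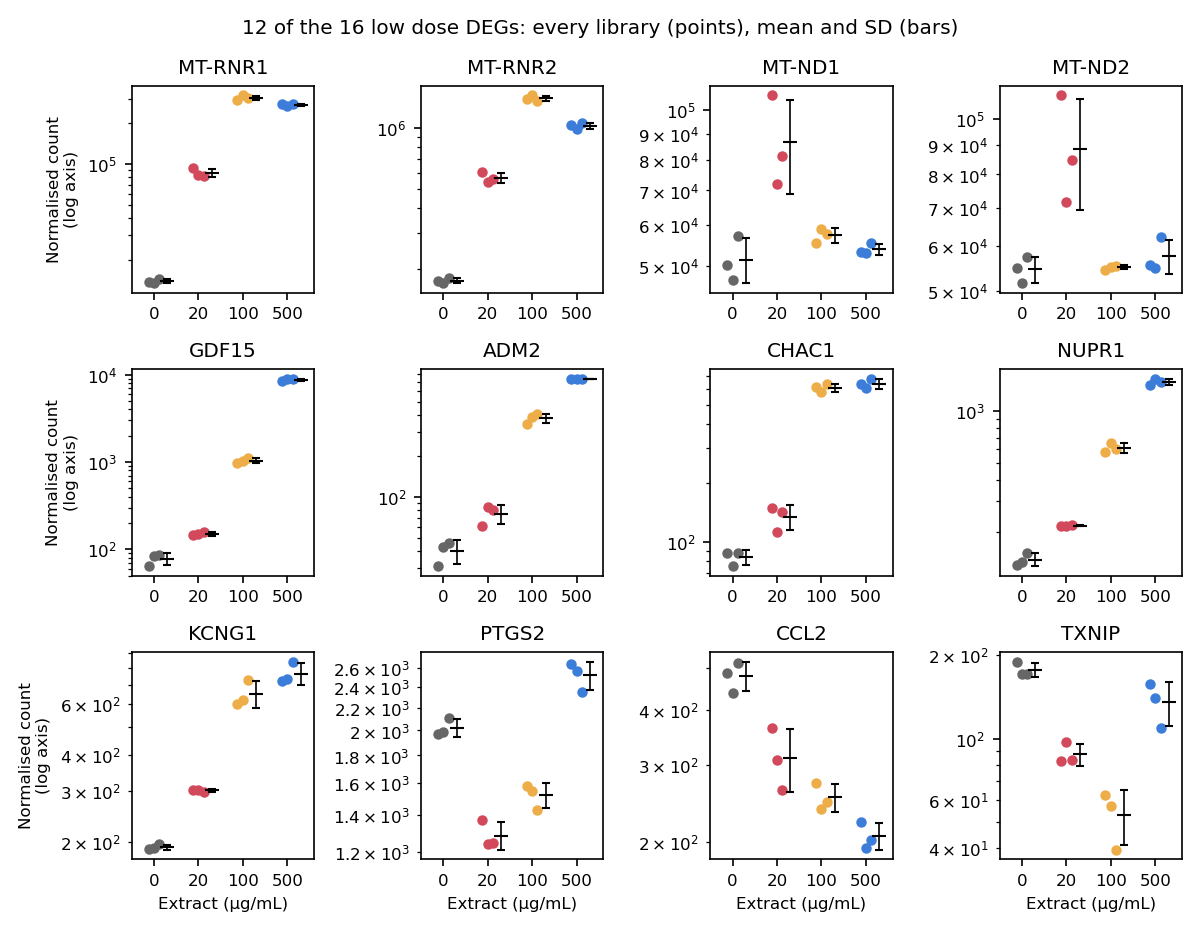
Normalised counts on log axes for 12 of the 16 DEGs in every library of the series by dose, 0 being vehicle, with mean and SD (n = 3) beside each group. Low dose points stand apart from vehicle points in all 12 genes, MT-ND1 and MT-ND2 are highest at 20 µg/mL, and PTGS2 is lowest there.

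Other inflammatory genes gave no call beside these. CCL2 was the 1 changed gene of 7 tested chemokines, beside 0.617% lower over all tested genes. CXCL8 had 91.2, 104 and 107 normalised counts with vehicle and 89.5, 66.3 and 100.5 at the low dose, overlapping (log2 -0.24, SE 0.144, DESeq2 adjusted p 0.643). PTGS2 was the 1 changed gene of 13 for prostaglandin synthesis and receptors, again beside 0.617%. IL6 (log2 0.10, SE 0.173, DESeq2 adjusted p 0.957) and IL11 (log2 0.03, SE 0.070, DESeq2 adjusted p 0.971) did not pass the test. Of 12 cytokines, 16 NF-kB subunits and targets and 29 interferon response genes 0 were changed under DESeq2 (medians 0.0042, -0.049 and 0.046), and at an unadjusted p under 0.05 there were 1, 2 and 1. The edgeR and limma tests each called 1 NF-kB gene and none of the others.

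The aryl hydrocarbon receptor list held 3 changed genes of 8 tested, all lower, against 0.617% of all tested genes. CYP1B1, a target enzyme of the receptor, had 3333, 3311 and 3299 normalised counts with vehicle and 2588, 2659 and 2714 at the low dose (log2 -0.32, SE 0.039, DESeq2 adjusted p 1.64e-13). AHRR, its repressor and target, had 1029, 998 and 1062 and 803, 763 and 782 (log2 -0.39, SE 0.065, DESeq2 adjusted p 4.61e-07). Neither gene's groups overlapped, and both averaged lower at the higher doses, CYP1B1 at 2034 ± 44.2 and 1412 ± 52.8 and AHRR at 632 ± 26.0 and 521 ± 13.4. CYP1B1 shares 12.8% of its exon bases with an antisense gene. TIPARP (log2 -0.24, SE 0.066, DESeq2 adjusted p 0.0168) lost its call in 5 of the 6 fits that left out 1 library (DESeq2 adjusted p up to 0.293), and CYP1A1, at 8.37 to 15.8 normalised counts, did not pass the test.

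Of 27 genes for cholesterol synthesis and uptake 3 fell (0.617% over all tested genes) and none rose. Among them was HMGCS1 (log2 -0.24, SE 0.062, DESeq2 adjusted p 0.0111), which acts early in the pathway, and its call was lost in 4 of the 6 fits that left out 1 library. HMGCS1 shares 37.7% of its exon bases with an opposite-strand gene. None of 12 fatty acid synthesis genes was changed under DESeq2, edgeR or limma, with 1 at an unadjusted p under 0.05. Of 30 DNA replication and nucleotide supply genes 3 fell (again beside 0.617%), with a list median of -0.074. RRM2, a subunit of ribonucleotide reductase, had 4629, 4426 and 4349 and 3965, 3965 and 3976 normalised counts (log2 -0.17, SE 0.035, DESeq2 adjusted p 2.78e-04), while the calls of MCM3 (-0.15, SE 0.039) and PCNA (-0.16, SE 0.042) were not kept in every fit that left out 1 library, that of MCM3 being lost in 5 of 6. Of 26 mitotic genes and 16 p53 targets DESeq2 called 0, at an unadjusted p under 0.05 there were 4 and 3, and edgeR and limma each called 1 mitotic gene. Their values included CDKN1A at -0.17, SE 0.081 (DESeq2 adjusted p 0.466) and MKI67 at -0.08, SE 0.040 (0.476).

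Of 16 TGF-beta, BMP and YAP targets 3 rose (1.11% over all tested genes) and of 26 collagens and matrix genes 2 fell (0.617%). CCN1, a matricellular protein, had 4058, 3923 and 4482 normalised counts with vehicle and 5728, 5357 and 5514 at the low dose (log2 0.41, SE 0.043, DESeq2 adjusted p 3.11e-18). RND3, an atypical small GTPase, rose from 1188 ± 39.7 to 1528 ± 46.7 (log2 0.36, SE 0.042, DESeq2 adjusted p 2.68e-15). The groups did not overlap in either gene. CCN2, a relative of CCN1 in the same list, went the other way without passing DESeq2 (log2 -0.14, SE 0.047, DESeq2 adjusted p 0.0973). The edgeR and limma tests called CCN2 lower (adjusted p 0.0386 and 0.0494), and it shares 11.9% of its exon bases with an opposite-strand gene. Of the 16 targets 11 had log2 values above 0. PLAU, the urokinase plasminogen activator, fell (log2 -0.29, SE 0.045, DESeq2 adjusted p 1.28e-07), as did ALDH1A3, a retinaldehyde dehydrogenase (log2 -0.15, SE 0.023, DESeq2 adjusted p 1.11e-08), and they share 31.0 and 32.1% of their exon bases with opposite-strand genes. COL12A1, a fibril-associated collagen, also fell (log2 -0.15, SE 0.027, DESeq2 adjusted p 2.74e-06). THBS1, thrombospondin, fell as well (log2 -0.18, SE 0.037, DESeq2 adjusted p 2.48e-04), with a call that was lost in 5 of the 6 fits that left out 1 library. KCNG1 (ENSG00000026559, chr20:51003656-51023107, minus strand), a modifier subunit of voltage-gated potassium channels, was a DEG with 189.6, 191 and 197 normalised counts with vehicle and 304, 304 and 299 at the low dose (log2 0.65, SE 0.110, DESeq2 adjusted p 1.18e-06). The replicates of KCNG1 were close and its groups far apart. Of 18 listed voltage-gated sodium and calcium channel genes only 9 reached the minimum count and were tested. None of the 9 passed the DESeq2, edgeR or limma test, and 0 had an unadjusted p under 0.05. The whole list summed to 1353 to 1437.7 normalised counts with vehicle and 1365.8 to 1380.2 at the low dose, so the low counts limited the test. Named after their values were seen, the nuclear lncRNAs NEAT1 (log2 0.40, SE 0.065, DESeq2 adjusted p 2.37e-07) and MALAT1 (log2 0.36, SE 0.062, DESeq2 adjusted p 2.23e-06) also rose, and MALAT1 shares 83.7% of its exon bases with TALAM1 on the opposite strand.

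Apart from the mitochondrial genes, 5 of the 16 DEGs were genes whose reads may belong elsewhere or whose mean count was under 100. RPS10-NUDT3 (ENSG00000270800, chr6:34284887-34426071, minus strand), a readthrough of neighbouring genes, had 0, 0 and 3 counts in the vehicle libraries and 11, 23 and 88 in the low dose libraries, a ratio of 41.0 relative to the library totals with an exact 95% counting interval of 13.7 to 202, which covers counting error only (DESeq2 adjusted p 0.00164). Most of its low dose counts came from replicate 3. The fitted log2 fold change of RPS10-NUDT3 was 5.39, but 4.11 without low dose replicate 3, 4.82 and 4.76 without vehicle replicate 1 or 2, and 7.91 without vehicle replicate 3, where no vehicle count is left and the value is no bound. The call was lost in the 6 libraries alone (DESeq2 adjusted p 0.0779). It shares exons with RPS10 (log2 -0.06, SE 0.043) and NUDT3 (-0.11, SE 0.044), neither of which passed the test. SPDYE6 (ENSG00000260097, chr7:102345746-102356444, minus strand), of a family of near-identical copies, had 30.7, 28.0 and 23.9 and 64.4, 60.2 and 71.2 normalised counts (log2 1.24, SE 0.294, DESeq2 adjusted p 0.00326), and its call was lost without low dose replicate 3 (log2 1.18, DESeq2 adjusted p 0.0754) or vehicle replicate 3 (1.15, 0.0614). RN7SL1 (ENSG00000276168, chr14:49586580-49586878, plus strand), the RNA of the signal recognition particle, which has many copies, had 105, 172 and 63.5 and 33.7, 38.8 and 40.8 (log2 -1.59, SE 0.362, DESeq2 adjusted p 0.00166). Its vehicle libraries varied widely, and its call was lost without vehicle replicate 2 (-1.16, DESeq2 adjusted p 0.147) or without any one low dose library (0.212 to 0.219). LIMS4 (ENSG00000256671, chr2:110445883-110473075, minus strand), which has a near copy in LIMS3, had 149, 173 and 165 and 107, 101 and 86.8 (log2 -0.72, SE 0.197, DESeq2 adjusted p 0.0177), and its call was lost in 5 of 6 such fits (DESeq2 adjusted p up to 0.233). The counts of these 4 genes are uncertain. ADM2, described above, was the other DEG with a mean under 100.

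By kind of gene, 162 protein-coding genes rose and 91 fell of 12824 tested, and of 1508 tested lncRNAs 2 rose and 2 fell. Of the 263 changed genes, 87 stood in at least 1 of the 34 lists and 176 in none. Lists of 31 proteasome subunits, 21 AP-1 and early response genes and 7 metallothionein and zinc genes had 0 changed genes under DESeq2 and 3, 4 and 1 at an unadjusted p under 0.05, and edgeR called 1 proteasome gene. Of 78 ribosomal protein genes RPLP0 alone was called and fell (log2 -0.13, SE 0.033, DESeq2 adjusted p 0.0105), 1.28% of the list beside 1.73% of all tested genes. The edgeR test called 0 of the 78 (RPLP0 adjusted p 0.0535), where DESeq2 gave 14 at an unadjusted p under 0.05 and limma called 1. The RPLP0 call was lost without low dose replicate 3 or vehicle replicate 3, and without low dose replicate 1 there were 4 changed ribosomal protein genes. Of 14 SNHG and similar host transcripts SNHG32 alone fell (log2 -0.17, SE 0.045, DESeq2 adjusted p 0.0157), beside 0.617% lower over all tested genes. Its call was lost in all 6 fits that left out 1 library. Of 32 glycolysis and hypoxia genes ENO2 (0.23, SE 0.061), PFKP (0.12, SE 0.032), EPAS1 (0.11, SE 0.030) and HIF1A (0.09, SE 0.026) rose and TXNIP fell. Over all tested genes 1.11% were higher and 0.617% lower. Without low dose replicate 3 TXNIP alone was called in this list.

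The markers of the labelled cell type were partly absent. GFAP, the defining filament of astrocytes, held 1.02 to 5.26 normalised counts over the 6 libraries, S100B 0 to 5.12 and ALDH1L1 0 to 1.75. Of 6 tested astrocyte and glioma markers VIM rose (log2 0.11, SE 0.029, DESeq2 adjusted p 0.0110) and CD44 fell (log2 -0.09, SE 0.020, DESeq2 adjusted p 0.00168). Over all tested genes 1.11% were higher and 0.617% lower. The summed level of the list was 149384.5 to 156875.1 with vehicle and 154400.5 to 157970.4 at the low dose. None of the 4 neuron, 3 oligodendrocyte, 3 microglia, 7 fibroblast and 2 endothelial markers tested passed the DESeq2 test, where 7 of these 19 had an unadjusted p under 0.05 and edgeR and limma each called 1. All 7 fibroblast markers had log2 values below 0 (median -0.12, against 0.0024 over all tested genes). Their sums were 123457.1 to 127931.8 normalised counts with vehicle and 112556.5 to 121543.6 at the low dose. All 4 neuron markers were also below 0 (median -0.12), with sums of 3633.6 to 3813.3 and 3250.1 to 3579. The microglia sum was 3151.3 to 3316.8 with vehicle and 3406.8 to 3444.6 at the low dose, and the oligodendrocyte sum 3840.8 to 3894.9 and 3440.5 to 3819.9. The groups did not overlap in these 4 sums, while the endothelial sums (576 to 605 and 555 to 657) overlapped. Taken singly, 21.7% of all tested genes also showed no overlap, and the sums were not tested. Of 2 tested epithelial markers KRT18 fell (log2 -0.21, SE 0.043, DESeq2 adjusted p 1.82e-04), beside 0.617% lower over all tested genes. The other was at -0.13 and did not pass the test. The epithelial sums, also not tested, did not overlap either (4873.8 to 5078.4 with vehicle, 4179.3 to 4460 at the low dose). EPCAM and CDH1 stood at 0 to 4.19 normalised counts, and the part of these markers in the results was not tested. All libraries came from the same established line, so these values are levels of marker genes in that line and give no share of cell types.

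For the 60 genes chosen by rule the low dose level was also set against the higher doses in the same fit. Low dose and medium dose differed at a DESeq2 adjusted p under 0.05 in 49 of the 60, against 17% of all tested genes, and low dose and high dose in 49, against 56%. Both contrasts use the same low dose libraries as the comparison with vehicle. In addition, 56 of the 60 were changed genes, and calls were more frequent at high counts. The shares over all tested genes are therefore not a like comparison. Several genes that fell at the low dose stood higher at the high dose than with vehicle on average. PLAU averaged 1985 ± 41.9 with vehicle, 1628 ± 65.6 at the low dose and 2616 ± 41.5 at the high dose (low over high log2 -0.69, DESeq2 adjusted p 1.42e-52). SLC38A2 averaged 9598 ± 319.5, 8133 ± 216 and 11028 ± 302 (low over high log2 -0.44, DESeq2 adjusted p 4.69e-36). PTGS2, given above, ran the same way.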

How the data were processed

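The authors made strand-specific mRNA libraries (MGIEasy RNA Directional kit) from total RNA and sequenced 100-base paired ends. Per the labels they used FastQC 0.11.9, Trim Galore 0.6.5, STAR 2.7.3a and RSEM 1.3.3 on GRCh38. The way mRNA was selected and the strand setting of RSEM are not given in the sources used here. The deposited table holds RSEM expected counts for 60675 genes, which are not normalised, and 8.75% of the values are not whole. They were rounded. Symbols and coordinates came from GENCODE v44, which held 93.2% of the IDs. Each column was matched to its library by the code in its description.

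DESeq2 1.42.0 (R 4.3.3) was fitted to all 12 libraries with group as the term, as the study names that tool. The two-sided Wald test of low dose against vehicle was adjusted (Benjamini-Hochberg) over the 15246 genes whose normalised count averaged 10 or more in the 6 libraries, with independent filtering off, since that filter left genes under a mean of 263.4 untested. Of 15251 genes at the minimum 5 had no p-value (outlying counts). Named were all DEGs with a mean of at least 100. Next came the 8 lowest p-values each way among other changed genes of at least that mean without overlap between the groups. The rule also took the 5 lowest each way among changed genes at means of 10 to 100. It added the 2 lowest in each of 34 lists where changed, and all mitochondrial rRNAs and mRNAs. Some genes that met this rule are not reported here, although counts over lists include them. Other genes named with their lists were added after their values were seen. The comparison, lists and rules were chosen with earlier results of these data known. Replicates of a group differed by more than counting noise (chi-square of 1.99 to 3.55 per degree of freedom over genes), so none was a copy. The fits were tested on simulated data. Alternatives were edgeR 4.0.16, limma voom, size factors without mitochondrial genes, other minimum counts and folds, the 6 libraries alone, a replicate block and each library left out.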

Additional observations from a re-analysis of the deposited data

How the results depend on the processing

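The 16 DEGs became 31 with the edgeR quasi-likelihood test and 30 with limma voom, 53 with a log2 limit of 0.32, 6 with a fold over 2 and 2 when the fold of 1.5 was itself tested, and the 263 changed genes became 425 with edgeR and 403 with limma voom. Leaving out 1 library gave 13 to 18 DEGs, 135 to 233 changed genes and a difference in mitochondrial rRNA share of 2.12 to 2.28 percentage points. These fits have fewer samples, and the cause of the larger counts under edgeR and limma was not tested. Without a minimum count, with a minimum of 100, with independent filtering, in the 6 libraries alone and with size factors that left out mitochondrial genes there were 11 to 18 DEGs and 204 to 306 changed genes. A replicate block gave 17 DEGs and 228 changed genes and left the rRNA share at 2.21 points. The numbers were not taken to pair libraries, since deviations of libraries of the same number correlated at -0.0393, -0.0725 and -0.1176 over 11262 genes. Of 831 values of named genes under the alternatives 760 kept their direction and side of the threshold, 67 kept the direction but lost the call, 2 gained it and 2 turned over, both for MT-ND6, at -0.011 without low dose replicate 1 and -0.0042 without vehicle replicate 3, within a range of -0.011 to 0.0868 when 1 library was left out. The median of all genes lay between 0.00088 and 0.0040 under every scaling. Depth limits calls most below a mean count of 100 and also between 100 and 300, as given with the results.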
